A study of Homo sapiens with 4 samples.

Results

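The regions described here are stretches of open chromatin that were called in every library of a DEK knockout experiment in 786-O cells and that stood lower in the ranking of peaks in both knockout libraries than in both control libraries. The 4 peak lists, limited to chromosomes 1 to 22, were joined into 134897 regions by any overlap of 1 bp or more, and 61035 of these held a peak in all 4 lists. In each list a shared region took its highest −log10 p, and this value became a percentile among the shared regions, from the weakest near 0 to the strongest at 100. A region was taken as losing rank where the lower of its 2 WT control percentiles exceeded the higher of its 2 DEK KO percentiles by at least 20 points, and this difference is called the gap. The rule kept 1666 regions, 2.73% of the shared regions, whereas 2292 regions (3.76%) met the same rule in the other direction. Because the percentiles themselves chose the regions, the percentiles, folds, −log10 p values and peak widths below describe the regions and test nothing.

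ATAC-seq marks open chromatin by letting a transposase insert sequencing adapters wherever DNA is accessible. 786-O is an established human line of clear cell renal carcinoma that lacks functional VHL. Per the labels, both groups express Cas9, which a lentivirus with blasticidin resistance had brought into a 786-O clone. The 2 WT control libraries came from such cells of wild-type genotype, and the 2 DEK KO libraries came from cells that also received lentivirus encoding guide RNAs against DEK and were sorted as single cells. How many clones or cultures stand behind each pair of libraries is not stated, so differences between clones and the effect of the knockout cannot be told apart.

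DEK is an abundant nuclear protein that binds DNA and histones, can bend and supercoil DNA, and has been described as a histone chaperone that helps deposit variant histone at chromatin. Open chromatin falls mostly at promoters, where transcription starts, and at enhancers, which lie within or between genes and act on promoters at a distance. Promoters of broadly active genes are often rich in CpG dinucleotides, whereas many promoters used in few cell types are poor in them.

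Only 87 of the 1666 regions lay within 1 kb of a start of a protein-coding gene, and their promoters were poorer in CpG than those of shared regions in general. The 250 bases before the start of 6 of these genes follow, read in the direction of transcription, with every CG dinucleotide in capitals. They show the range from a promoter with 1 CG to a promoter with 35. The first 4 are CpG-poor, and the last 2 are CpG-rich. The sequences come from RefSeq for GRCh38.p14. RAB3IL1, ZBTB38, TMEM139, GALNT7 and IL4R had the 5 largest gaps among regions that overlap a promoter window of the table, and ESRRG was chosen after its values were seen.

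RAB3IL1: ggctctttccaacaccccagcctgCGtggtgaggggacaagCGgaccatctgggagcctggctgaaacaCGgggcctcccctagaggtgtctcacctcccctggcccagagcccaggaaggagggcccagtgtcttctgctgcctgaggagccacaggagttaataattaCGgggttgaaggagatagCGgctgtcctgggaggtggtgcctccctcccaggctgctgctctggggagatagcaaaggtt
ZBTB38: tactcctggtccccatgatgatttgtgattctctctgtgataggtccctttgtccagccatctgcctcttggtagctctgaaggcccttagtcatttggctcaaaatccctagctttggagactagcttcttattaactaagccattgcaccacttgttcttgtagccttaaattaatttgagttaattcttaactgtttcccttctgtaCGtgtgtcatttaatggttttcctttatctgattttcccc
TMEM139: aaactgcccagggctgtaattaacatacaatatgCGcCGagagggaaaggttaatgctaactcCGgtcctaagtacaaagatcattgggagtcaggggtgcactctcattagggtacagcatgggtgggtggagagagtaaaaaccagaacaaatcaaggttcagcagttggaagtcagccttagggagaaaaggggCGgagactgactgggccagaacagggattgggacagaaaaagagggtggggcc
ESRRG: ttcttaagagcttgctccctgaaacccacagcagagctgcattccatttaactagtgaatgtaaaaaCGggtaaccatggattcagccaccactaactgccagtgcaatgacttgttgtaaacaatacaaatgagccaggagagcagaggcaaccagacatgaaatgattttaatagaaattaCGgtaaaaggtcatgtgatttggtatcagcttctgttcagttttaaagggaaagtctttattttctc
GALNT7: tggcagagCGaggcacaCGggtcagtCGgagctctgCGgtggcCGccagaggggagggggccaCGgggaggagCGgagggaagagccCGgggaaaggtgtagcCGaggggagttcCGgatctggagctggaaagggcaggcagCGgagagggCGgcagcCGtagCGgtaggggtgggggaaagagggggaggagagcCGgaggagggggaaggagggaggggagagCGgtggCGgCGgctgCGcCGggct
IL4R: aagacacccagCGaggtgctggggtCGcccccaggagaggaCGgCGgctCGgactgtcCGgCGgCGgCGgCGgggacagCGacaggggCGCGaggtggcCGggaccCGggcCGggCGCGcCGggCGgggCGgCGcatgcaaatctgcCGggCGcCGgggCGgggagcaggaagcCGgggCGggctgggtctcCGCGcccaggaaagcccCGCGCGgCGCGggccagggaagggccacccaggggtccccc

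The RAB3IL1 stretch lies on the minus strand at chr11:61920285-61920534 and holds 5 CG dinucleotides, and the ESRRG stretch lies on the minus strand at chr1:217076993-217077242 and holds 2. On the plus strand, ZBTB38 is at chr3:141323936-141324185 with 1 CG, and TMEM139 at chr7:143284649-143284898 with 4. GALNT7, also on the plus strand, is at chr4:173168561-173168810 with 20, and IL4R at chr16:27313724-27313973 with 35. Each stretch is overlapped by a region that lost rank. RefSeq promoter windows, which run from 250 bases before to 50 bases after a listed start, were compared as a whole. The regions that lost rank overlapped 64 windows of 61 genes, and all shared regions overlapped 11404 windows.

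Counted by region, 29 of the 60 regions behind these windows (48.3%) had CpG-poor windows only, with a ratio of observed to expected CpG below 0.6, against 13.2% of the 8473 shared regions with a window. Over windows, the ratio had a median of 0.589 in the 64 windows, against 0.844 in the windows of all shared regions and 0.84 in the 55 windows of regions that gained rank. It was below 0.6 in 32 of the 64 windows (50%), against 14.7% of the windows of all shared regions, 29.1% of those of regions that gained rank and 37.4% of all 21156 promoter windows in the table. The median GC content was 57.2%, against 65.3% for all shared regions and 70.0% for the regions that gained rank. The rule reaches regions of middle control rank most easily, so the comparison was repeated among regions with a mean control percentile from 40 to 80. There, 26 of 52 windows (50%) were below 0.6, against 15.4% of 4647 windows of shared regions.

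**Figure D1:**
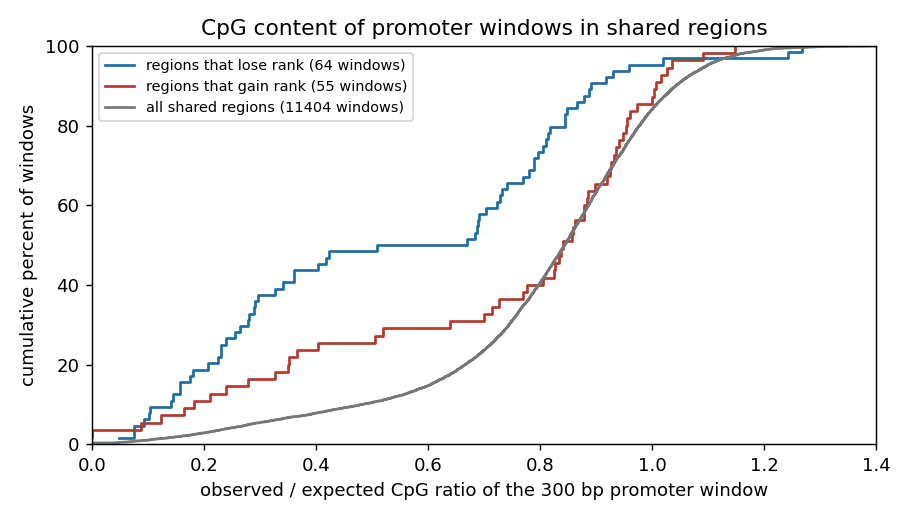
Cumulative percent of RefSeq promoter windows (y axis) up to each ratio of observed to expected CpG (x axis), for windows overlapped by regions that lost rank, by regions that gained rank and by all shared regions. The curve for regions that lost rank lies above the others over most of the CpG-poor range, with a median ratio of 0.589 against 0.844 for all shared regions.

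Short motifs, 12 in number, were searched on both strands of the same windows. Some windows overlap or coincide, such as those of ZBED6 and ZC3H11A, so a motif was counted once per region, over the 60 regions that lost rank and the 8473 shared regions with a window. GC box, ETS and E-box motifs were less frequent in the 60 regions. Each of these motifs holds a CG dinucleotide, and whether their shares differ beyond the CpG content was not tested. The GC box, which Sp factors bind, was searched as GGGCGG and was found in 31 of them (51.7%, against 75% of all shared regions with a window). The ETS motif, searched as CCGGAAG, was found in 2 (3.33%, against 22.5%). The E-box, searched as CACGTG, was found in 1 (1.67%, against 11.5%). AP-1 and TATA box motifs were more frequent. For AP-1, the dimer of FOS and JUN proteins, the search for TGANTCA found 8 regions (13.3%, against 6.68%). The TATA box, searched as TATAAA, was found in 9 regions (15%, against 6.29%). The 45 regions that gained rank and had a window held AP-1 and TATA box motifs in 17.8% each. They held the GC box in 71.1%, the ETS motif in 13.3% and the E-box in 4.44%, so low ETS and E-box shares were not particular to the losses. The shares of the other motifs follow, and among them the HIF core was also less frequent. A TEAD motif, searched as GGAATG, was found in 10 regions (16.7%, against 12.9%). The CCAAT box, spelled by its name, was found in 38.3% against 41.5%, and the HIF core, which is ACGTG and lies within every E-box, in 20% against 30.4%. For YY1, searched as AAGATGGCG, the shares were 3.33% and 4.83%. For RUNX, searched as TGTGGTT, they were 3.33% and 3.52%. For FOX factors, searched as TGTTTAC, they were 5% and 2.83%. The CRE, searched as TGACGTCA, had shares of 1.67% and 3.81%. A match describes the letters and not a bound factor.

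In the peak lists the regions ran from the middle of the ranking in the controls to its lower part in the knockout libraries. Their median percentile was 60.1 in WT control 1, 60.6 in WT control 2, 25.3 in DEK KO 1 and 18.6 in DEK KO 2. Of the 1666 regions, 297 stood below percentile 10 in DEK KO 1 and 472 in DEK KO 2, whereas none did so in either control. The lists held 87220 and 88059 peaks in the controls and 100037 and 96862 in the knockout libraries on these chromosomes. Depth in reads is not known from peak lists. Median −log10 p was 32.8 and 31.1 in the controls and 14.0 and 12.6 in the knockout libraries, against 26.3, 24.6, 23.2 and 28.3 for all shared regions. The losses were of moderate size, with a median gap of 25.9 points. A gap of at least 30 was reached by 494 regions, of at least 40 by 109, of at least 50 by 17 and of at least 60 by 2. The corresponding counts in the other direction were 864, 306, 86 and 17.

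The control percentile set where losses could occur, since a region must stand at 20 or more to fall by 20. None of the regions had a mean control percentile below 20, 178 lay from 20 to 40, 665 from 40 to 60, 625 from 60 to 80 and 198 above 80. The regions just inside the rule were in RNF121 and CR1 (gap 20 each after rounding) and near ABCC3 (20.02), and those just outside were near LOC124904228 (19.99) and in HEMK2 and FAS (19.98 each). Within a genotype the libraries differed slightly less in these regions than in all shared regions. The rule favours this, since a spread within a genotype makes the gap smaller. The knockout libraries still differed by at least 20 points in 189 of the regions (11.3%, against 14.2% of all shared regions). The controls did so in 47 (2.82%, against 7.66%). The median difference between the controls was 5.09 points in the 1666 regions and 6.32 in all shared regions, and between the knockout libraries it was 6.75 and 7.90.

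The peaks themselves were lower over background and narrower in the knockout libraries. The fold of signal over local background, which is the authors' own value for each peak as is the −log10 p, had medians of 8.66 and 8.07 in the controls and of 5.76 and 5.52 in the knockout libraries. For all shared regions the medians were 7.47, 6.94, 7.19 and 8.04. Both control folds exceeded both knockout folds in 1563 of the 1666 regions (93.8%), and this held for 13.6% of all shared regions. Fold and −log10 p are computed from the same pileup, so this is not a separate measurement. The called peak was narrower, and its width comes from the same peak calls, so it is not a separate measurement either. Its median width was 855 and 879 bp in the controls and 717 and 558.5 bp in the knockout libraries, and both control widths exceeded both knockout widths in 967 regions (58.0%), against 23.0% of all shared regions. The summits of the 4 peaks stayed within 100 bp of each other in 868 of the regions (52.1%), against 56.7% of all shared regions.

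Among regions at gene starts, VAV2 had the largest gap. VAV2 encodes an exchange factor for small GTPases, and the region at chr9:133990611-133991513, 0.811 kb from a start, had percentiles of 74.1 and 68.2 in the controls and of 30.5 and 22.1 in the knockout libraries, a gap of 37.7. At RAB3IL1, an exchange factor for Rab GTPases, the region chr11:61919736-61920746 covers the start and had percentiles of 52.4 and 51.1 against 7.39 and 15.6. IL4R, the interleukin-4 receptor alpha chain, had its region at chr16:27313339-27313814, with percentiles of 79.5 and 69.6 against 35.0 and 21.8. The region at RAB3IL1 was among the lowest-ranked in DEK KO 1, whereas that at IL4R stood in the upper part of the ranking in the controls and in the lower part in the knockout libraries.

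ZBTB38 encodes a zinc finger protein that binds methylated DNA, and its region at chr3:141323684-141324665 had percentiles of 78.7 and 84.4 against 44.4 and 41.9. The TMEM139 region (chr7:143284863-143285893) had percentiles of 74.1 and 71.0 against 37.0 and 20.3. At GALNT7, an enzyme that adds sugars in mucin-type glycosylation, the region chr4:173167981-173168998 had percentiles of 64.0 and 64.3 against 30.4 and 29.8. The libraries of each genotype lay close together at GALNT7, within 1 point of each other. SEMA4A, a semaphorin, had the highest control rank in this set, with percentiles of 91.3 and 90.9 against 59.1 and 42.9 (chr1:156152235-156153346). TINAG, a basement membrane protein of renal tubules, had percentiles of 56.1 and 63.1 against 26.3 and 14.2 at its start (chr6:54307434-54309333). KISS1, the precursor of kisspeptin, had percentiles of 45.3 and 49.6 against 9.99 and 14.2 (chr1:204195646-204196359). The other regions among the 15 with the largest gap at a start were near ESRRG, HTR3D, PHLDB2, LOC124908047, SLC5A10 and GRIA4.

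The largest gaps of all lay away from starts, where all but 87 of the 1666 regions lay. Whether gaps in general differed with place was not examined. LRRC8D, a subunit of volume-regulated anion channels, held the region with the largest gap of all, 68.0, at chr1:89823208-89824263 inside the gene and 1.269 kb from a start. Its percentiles were 73.6 and 73.7 in the controls and 5.59 and 3.93 in the knockout libraries, and its folds were 6.01 and 6.03 against 2.95 and 3.04. Inside SLC26A9, an anion transporter, the region chr1:205913146-205914256 had percentiles of 78.6 and 79.5 against 12.8 and 0.863. These were the only regions with a gap of at least 60.

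KCNK2, a leak potassium channel, held a region at chr1:215043558-215044793 with percentiles of 82.7 and 79.4 against 22.7 and 0.863. SMOC2 encodes a secreted matrix-associated protein, and the region chr6:168640943-168642063 inside it had percentiles of 74.3 and 75.2 against 8.76 and 16.1. A region inside RECK, a membrane-anchored inhibitor of matrix metalloproteinases, had percentiles of 68.0 and 63.8 against 11.5 and 4.98 (chr9:36091208-36092164; its nearest listed start is that of GLIPR2). All 3 regions stood above percentile 60 in both controls and below 25 in both knockout libraries. Inside IGFBP7, a secreted binding protein of insulin-like growth factors, the percentiles were 67.3 and 77.3 against 15.1 and 4.12 (chr4:57078547-57079757). A region 31.8 kb from MGAT5, which branches N-linked glycans, had percentiles of 85.2 and 81.8 against 31.2 and 4.44 (chr2:134087051-134088169). The remaining regions among the 15 were in DNM3, KCNT2 and AJAP1, and near LRATD2, PANK1, C1orf174, LOC124906252 and SPAG4.

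**Figure D2:**
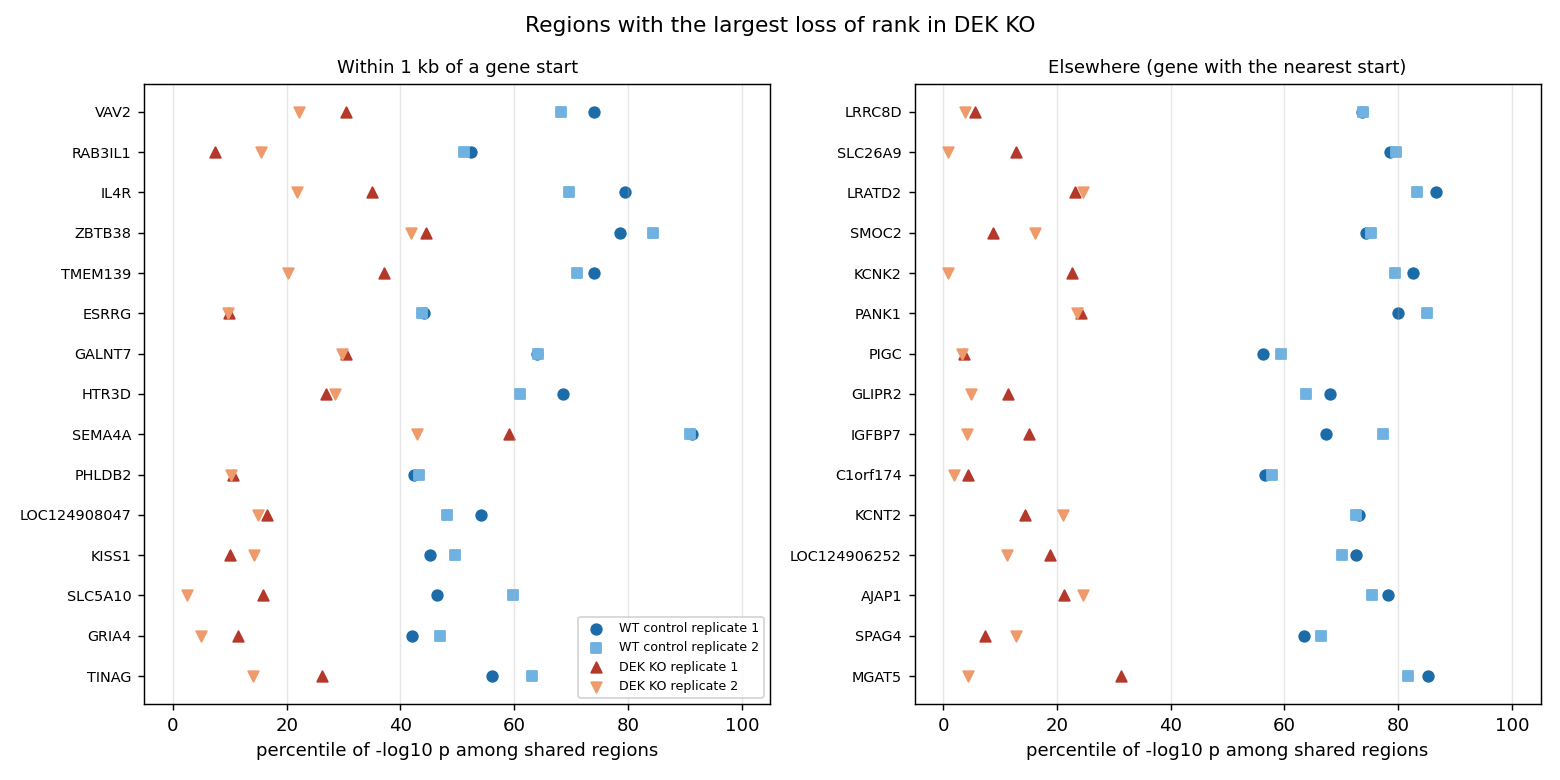
Percentile among shared regions in each of the 4 libraries for the 15 regions at a start and the 15 elsewhere with the largest gap. Each point is 1 library and each line of points 1 region, named by its nearest listed start; the control points lie right of the knockout points in every row because the rule required it.

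Regions were assigned to the protein-coding gene with the nearest start within 50 kb, which placed 850 of the 1666. Of 14858 genes with an assigned shared region, 794 had one that lost rank, 53 had at least 2, and 3 had 3. The 3 genes were ESRRG, KCNIP1 and ALDH1A1. None of their assigned regions gained rank. A region inside ESRRG that lay more than 50 kb from a start did gain, with percentiles of 31.7 and 22.6 against 54.9 and 58.9 (chr1:216902759-216903854).

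ESRRG encodes estrogen-related receptor gamma, an orphan nuclear receptor that drives genes of oxidative metabolism, and it is expressed in kidney. Of its 7 assigned shared regions, 3 lost rank, and 2 of these lay within 1 kb of a start. Other regions that cover a listed ESRRG start did not lose rank. The region covering the start whose sequence is shown above (chr1:217076748-217077620) had percentiles of 64.0 and 58.3 in the controls and 30.8 and 16.1 in the knockout libraries. The region 0.483 kb from another start (chr1:217091051-217092243) had percentiles of 44.2 and 43.7 against 9.93 and 9.64. The region inside the gene at chr1:216824330-216825226 had percentiles of 40.6 and 42.7 against 4.30 and 3.31. The control and knockout values were far apart at each of these regions. Beside it, the ESRRG region chr1:217089387-217090778 covers that start and stood no lower in the knockout libraries, with percentiles of 75.7 and 79.7 against 87.6 and 80.2. The ESRRG region chr1:216722942-216723780, which also covers a listed start, had percentiles of 5.53 and 28.9 against 0.146 and 1.86 and was not among the losses.

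ALDH1A1 encodes a retinaldehyde dehydrogenase that makes retinoic acid. Of its 5 assigned regions, 3 lost rank, and the region at its start was not among them: at chr9:72950996-72953371 the percentiles were 5.04 and 15.1 against 15.8 and 7.59. The region with the largest gap at ALDH1A1 (chr9:72930986-72932198) had percentiles of 62.2 and 50.4 against 17.4 and 1.86. Together with regions toward ANXA1, a phospholipid-binding protein, 6 of 16 shared regions in a stretch of 214 kb (chr9:72930986-73144554) lost rank.

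KCNIP1, a calcium-binding partner of potassium channels, had 3 of 10 assigned regions losing rank, with gaps from 20.4 to 33.7. TGFB2, a ligand of the TGF-beta family, had 2 of 8. The TGFB2 region chr1:218366571-218367836 was near the top of the ranking in the controls, at 97.2 and 91.6, and stood at 44.0 and 34.8 in the knockout libraries, a gap of 47.6. The second TGFB2 region (chr1:218380158-218380971) had percentiles of 82.1 and 80.5 against 57.5 and 41.3. A TGFB2 region between them was not among the losses, with percentiles of 94.9 and 96.9 against 97.4 and 91.9 (chr1:218376860-218377675). PANK1, which starts coenzyme A synthesis, had 2 of 3 assigned regions, PDE4D, which breaks down cyclic AMP, 2 of 5, TENT4B 2 of 7 and DAP 2 of 12.

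The gene whose span held most losses was HECW1, which encodes a ubiquitin ligase of the HECT family, on the short arm of chromosome 7. Of 18 shared regions inside HECW1, 7 lost rank and none gained. These 7 also formed the stretch with most losses, where neighbouring losses were at most 100 kb apart, with 7 of its 13 shared regions losing rank over 291 kb (chr7:43211396-43502645). The HECW1 region chr7:43390408-43391866 had percentiles of 58.5 and 60.6 in the controls and of 17.8 and 17.5 in the knockout libraries. The HECW1 region chr7:43376835-43378313 had percentiles of 86.1 and 86.7 against 52.5 and 9.0. The strongest region of HECW1 in the controls stood near the top in all 4 libraries, at 98.8 and 99.7 against 96.3 and 89.7 (chr7:43522159-43523102).

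**Figure D3:**
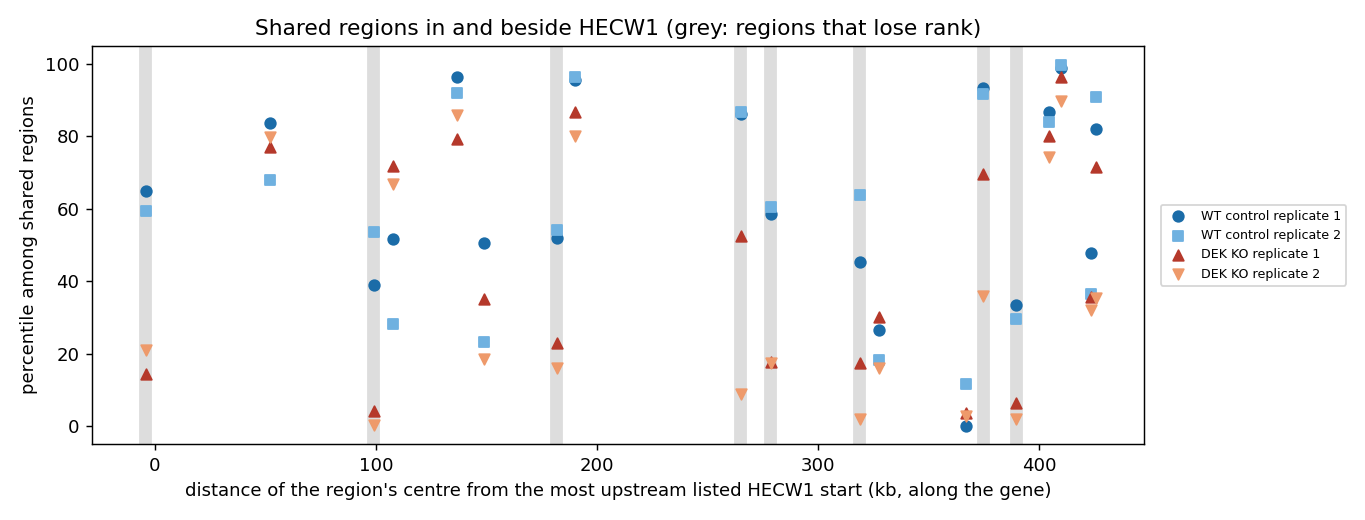
Percentile among shared regions in each library (y axis) against the distance in kb from the most upstream listed start of HECW1 (x axis), with the regions that lost rank shaded. Regions that lost rank lie among regions outside the rule, some with overlapping control and knockout points, and a further region that lost rank lies just upstream of the gene.

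Other stretches on the same arm were near TNS3, a tensin of focal adhesions, and AHR, the aryl hydrocarbon receptor. All 4 shared regions of the stretch chr7:47100625-47180846 beyond TNS3 lost rank. So did 4 of 17 in the stretch chr7:47379838-47605308, which covers a part of the gene and reaches upstream of it. Inside TNS3 as a whole, 3 of 21 shared regions lost rank. At AHR, 4 of 11 shared regions lost rank (chr7:17206040-17383797). Among the stretches of 3 losses, that in ITGB8, an integrin subunit, had 3 of 4 shared regions (chr7:20306215-20385632). Off chromosome 7, 4 of 10 regions near NOCT and 4 of 10 near AGAP1 lost rank.

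Chromosome 7 had the highest share of its shared regions losing rank, 160 of 3592 (4.45%, exact 95% interval 3.80 to 5.18), and chromosome 1 the next, 250 of 6184 (4.04%, 3.57 to 4.56). Intervals here cover counting error only, and regions of 1 library set are not independent. The lowest shares were on chromosome 19, 13 of 1855 (0.701%, 0.374 to 1.20), and chromosome 22, 7 of 982 (0.713%, 0.287 to 1.46). Chromosomes 1 and 7 together held 24.6% of the regions that lost rank and 16.0% of all shared regions.

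**Figure D4:**
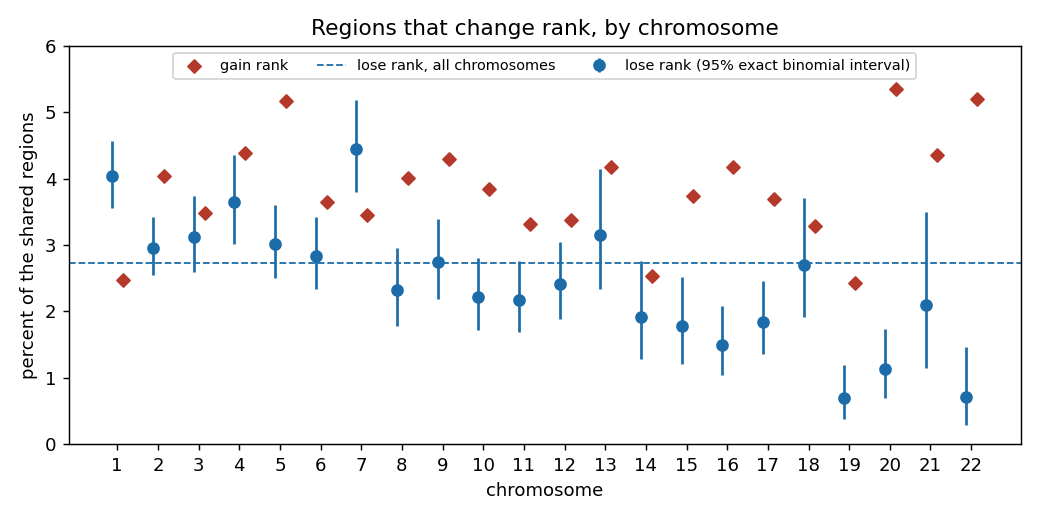
Percent of the shared regions of each chromosome that lost rank, with exact 95% binomial intervals, and that gained rank (diamonds); the dashed line marks the 2.73% over all chromosomes. Chromosomes 7 (4.45%) and 1 (4.04%) are highest for losses, and chromosomes 19 (0.701%) and 22 (0.713%) lowest.

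The losses on chromosome 7 lay mostly between 10 and 60 Mb, which is largely its short arm. In bins of 10 Mb, the 5 bins from 10 to 60 Mb had between 8.33% and 10.7% of their shared regions losing rank, against a median of 2.65% over the 284 bins with at least 20 shared regions. Pooled after these values were seen, chromosome 7 from 10 to 60 Mb had 102 of 1055 shared regions losing rank (9.67%, 7.95 to 11.6) and 15 gaining (1.42%). The rest of chromosome 7 had 58 of 2537 (2.29%). The whole ranking of that segment was lower in the knockout libraries. The median percentiles of all its 1055 shared regions were 53.7 and 53.4 in the controls and 44.8 and 44.1 in the knockout libraries. When each percentile was centred on the median of its 10 Mb bin in its library, 32 regions of the segment lost rank, and 1310 of the 1666 regions (78.6%) remained over the genome. The count in the segment also depended on the ranking: it was 49 with ranking by fold and 34 with percentiles among all peaks of a list. Copy number was not measured here, and its part in the result was not tested.

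Regions were also chosen with only 1 library of each genotype, and the difference was then read in the remaining pair. When 1 control and 1 knockout library chose regions with a difference of at least 20 points, the other control and knockout library gave a difference that the choice had not used. This unused pair still helped to define the shared regions, which needed a peak in all 4 lists. The main rule used all 4 libraries, so its own regions have no unused value and the split does not test them. The 4 possible choices took from 6021 to 7156 regions. In the unused pair the median difference of the chosen regions was 12.2 to 13.9 points (mean 12.8, SD 0.766, n = 4 choices that share libraries), against −0.03 to 0.53 for all shared regions. It was above 0 in 75.6% to 79.0% of the chosen regions, against 49.9% to 52.2% of all shared regions.

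Chosen by WT control 1 and DEK KO 1, 2325 of 6021 regions (38.6%) also differed by at least 20 points between WT control 2 and DEK KO 2, against 11.7% of all shared regions. The regions chosen by WT control 1 and DEK KO 2 did so in 32.7% between WT control 2 and DEK KO 1, against 10.2%. Those chosen by WT control 2 and DEK KO 1 did so in 36.4% between WT control 1 and DEK KO 2, against 11.4%. With WT control 2 and DEK KO 2 choosing, the share was 32.5% between WT control 1 and DEK KO 1, against 9.86%. In all 4 choices the unused libraries thus showed a smaller difference in the same direction. With 2 libraries in a group, an exact permutation test over libraries could not reach 0.05, and none was run.

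**Figure D5:**
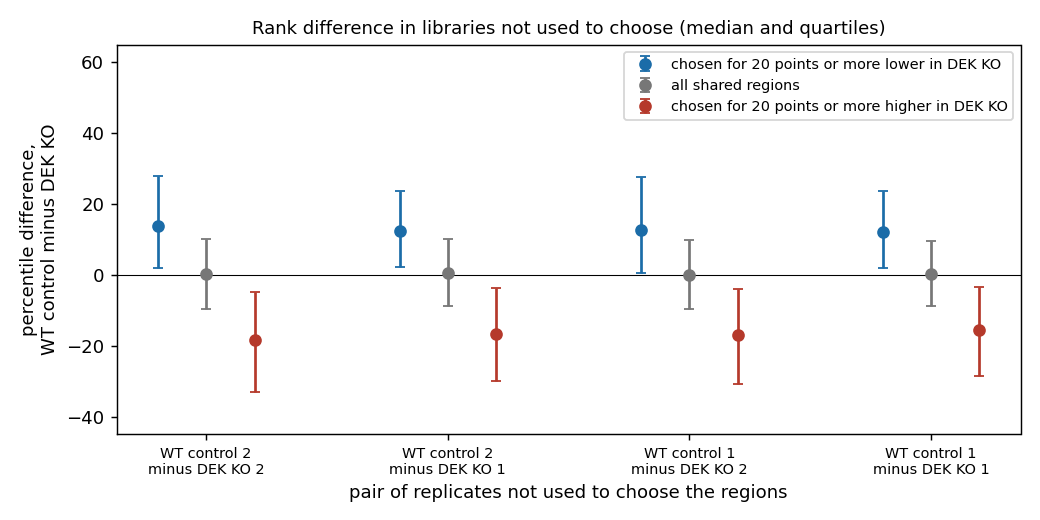
Difference in percentile (control minus knockout) in the pair of libraries that did not choose the regions, for regions chosen as losing rank, as gaining rank and for all shared regions; points are medians and bars run between quartiles. The regions chosen as losing rank have medians from 12.2 to 13.9 points in the losing direction, against −0.03 to 0.53 for all shared regions.

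Most of the regions lay at a distance from promoters. The share within 1 kb of a start was 5.22% (4.20 to 6.40), against 18.6% of all shared regions and 3.75% of the regions that gained rank. Among regions with a mean control percentile from 40 to 80 it was 5.43%, against 19.1% of all shared regions in that range. A further 856 regions (51.4%, 48.9 to 53.8) lay inside a gene, against 42.1% of all shared regions and 43.5% of those that gained rank. The other 723 (43.4%) lay between genes, against 39.2% and 52.7%. The median distance to a start was 48.1 kb, against 26.5 kb for all shared regions, and 490 regions (29.4%) were more than 100 kb from one. A low share at starts was thus common to losses and gains of rank. The places exclude each other, so a low share at starts in itself raises the shares inside and between genes. Against the gains, whose share at starts was also low, the losses lay more often inside a gene (51.4% against 43.5%).

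The regions lay near each other more often than shared regions in general did. Another region that lost rank lay within 50 kb of 219 regions (13.1%), against 9.03% of all shared regions and 5.93% of regions that gained rank. Regions that gained rank likewise lay near each other, 345 of them within 50 kb of another (15.1%, against 11.1% of all shared regions). A region that gained rank lay that near to 129 (7.74%, against 11.1%). Of the 3454 regions called in both controls and in neither knockout library, 1 or more lay within 50 kb of 307 regions (18.4%, against 16.1%). For the 8423 regions called in both knockout libraries alone, the figure was 493 (29.6%, against 32.5%).

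Among lists of genes by function, the regions were most frequent at genes of the mitochondrial coactivator list. The list holds PGC-1 coactivators, nuclear receptor partners, and NRF1, GABPA, TFAM, SIRT1 and SIRT3. Of its 12 genes, 10 had an assigned shared region and 3 had one that lost rank. Of its 41 assigned shared regions 5 lost rank (12.2%) and none gained, against 2.18% and 3.01% of all 38978 assigned regions. The list's median gap was −4.68, against −6.99 over all assigned regions. ESRRG supplied 3 of the 5, and PPARD and PPARA, nuclear receptors that control fatty acid oxidation, supplied 1 each. ESRRG lies between 210 and 220 Mb of chromosome 1, as do TGFB2 and PTPN14 of the lists below. In that bin 18 of 266 shared regions lost rank (6.77%) and 4 gained. The median percentiles of all its shared regions were 61.2 and 59.3 in the controls and 52.6 and 46.4 in the knockout libraries. Whether these genes differ from the rest of their bin was not tested. The PPARA region (chr22:46187521-46188398) had percentiles of 76.7 and 74.5 against 49.7 and 39.9, and the PPARD region (chr6:35359639-35360694) had 43.8 and 36.7 against 8.76 and 16.1.

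In the list of TGF-beta, SMAD and ID genes, 7 of 122 assigned regions lost rank (5.74%) and 2 gained, with a median gap of −7.40. By role, the ligands TGFB2 and INHBA, the signal transducer SMAD2, the inhibitor SMAD7 and the target genes ID3 and ID4 held them. ID4, an inhibitor of basic helix-loop-helix factors, had a region 5.653 kb from its start (chr6:19830274-19831717) with percentiles of 45.3 and 45.1 against 3.72 and 7.73. The INHBA region (chr7:41704953-41705735) had percentiles of 79.3 and 88.2 against 48.5 and 49.6. At ID3 the region covered the start (chr1:23559295-23559814), with percentiles of 50.8 and 45.5 against 15.9 and 25.1. The region at SMAD7 (chr18:48929793-48930738) had 79.6 and 86.9 against 56.0 and 58.1. At each of these regions both controls stood above both knockout libraries, which the rule required. Other regions of the same genes need not share this. The INHBA region lies on chromosome 7 between 10 and 60 Mb, where the whole ranking was lower in the knockout libraries.

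In the Hippo pathway and TEAD target list 6 of 116 regions lost rank (5.17%) and 3 gained, with a median gap of −5.33. TGFB2, which both lists hold, supplied 2 of the 6, and PTPN14, a phosphatase that restrains YAP, had a region at chr1:214506712-214507980 with percentiles of 81.9 and 89.7 against 49.5 and 50.7. For CRIM1 the percentiles were 49.7 and 54.8 against 19.0 and 19.8 (chr2:36507112-36507617). TGFB2 and PTPN14 lie in the 10 Mb bin of chromosome 1 that also holds ESRRG, described above.

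Few of the regions were assigned to kidney genes. Of 56 regions assigned to renal lineage transcription factors 3 lost rank (5.36%) and 1 gained. Of 95 assigned to proximal tubule genes 4 lost rank (4.21%) and 3 gained. Over all assigned regions 2.18% lost rank and 3.01% gained, and counts this small are not read further. In the list of renal lineage transcription factors, MECOM had a region at chr3:169131424-169132607 with percentiles of 88.7 and 60.5 in the controls and of 38.3 and 38.1 in the knockout libraries. In the proximal tubule list, the region assigned to CUBN, an endocytic receptor, lies inside TRDMT1. Its nearest listed start, 22.6 kb away, is that of CUBN. This region had percentiles of 71.5 and 52.0 against 18.9 and 3.31 (chr10:17152424-17153964). The region inside SLC4A4, a bicarbonate cotransporter, had 48.0 and 42.2 against 12.4 and 1.86 (chr4:71320211-71321134). The regions assigned to CUBN and SLC4A4 stood below percentile 20 in both knockout libraries, and that in MECOM stood below 40 in both. None of the 36 regions at distal nephron genes lost rank, a number too small to read against the 2.18% of all assigned regions.

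HIF targets, which are constitutively induced in cells without VHL, had 3 of 112 regions losing rank (2.68%) and 3 gaining (median gap −6.54), close to the share over all assigned regions. They were near VEGFA, CCND1 and ADM, with gaps from 21.0 to 23.8. Mesenchymal genes had 3 of 115 (2.61%, at MMP2, FN1 and CD44), epithelial junction genes 2 of 69 (2.90%, at TJP1 and CDH1) and growth factor genes 3 of 139 (2.16%, at IGF1R, PDGFC and FGFR1). A single region lost rank at WNT genes (SFRP1, of 101), NF-kB genes (NFKBIZ, of 81), glycolysis genes (ENO1, of 57), glucocorticoid receptor genes (NR3C1, of 55) and DEK partners (DEK itself, of 74). No region lost rank among 106 at lipid and sterol genes, 64 at p53 targets, 62 at cell cycle genes, 57 at AP-1 genes, 50 at ribosomal protein genes and 26 at chromatin tumour suppressors of renal carcinoma. At the 2.18% over all assigned regions, lists of this size hold few losses or none, and nothing is read from these counts.

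At DEK itself, the region 42.1 kb from the start at chr6:18306612-18307878 lost rank, with percentiles of 64.0 and 61.5 against 22.7 and 11.3. A region inside DEK gained, with 38.5 and 42.0 against 65.9 and 66.9 (chr6:18242299-18243360). The region at the DEK start (chr6:18263024-18265209) had percentiles of 2.32 and 7.54 against 15.3 and 37.7, and it was called in all 4 lists. Peak lists do not show whether the gene was disrupted, so the knockout could not be checked.

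The labelled cell type was looked at through marker genes. Of 10 markers of 786-O cells, 9 had a shared region within 1 kb of a start (all but NNMT), among them PAX8, PAX2 and EPAS1, against 0 of 5 for endothelium, 2 of 6 for blood cells, 2 of 5 for hepatocytes, 2 of 5 for neurons and 3 of 5 for fibroblasts. None of the 72 shared regions assigned to the 786-O markers lost rank, against 1 of 9 for blood cells, 1 of 17 for fibroblasts and none for the other cell types, and counts this small are not far from the 2.18% over all assigned regions. A shared region at a start is common: of 15101 genes with a listed start, 8985 had a promoter window overlapped by one. The marker counts are thus a weak check of the cell type. Open promoters outside the cell type do not show expression.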

How the data were processed

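ATAC-seq peaks were given for 4 libraries, 2 WT control and 2 DEK KO, as 1 list per library. Per the submitters' processing notes, the tools were MACS2 2.2.7.1, Bowtie2 2.2.5, cutadapt 1.18, Picard 2.26.9, SAMtools 1.7, deepTools 3.5.1, ChIPseeker 1.32.1 and DiffBind 3.6.5, with no role or order stated, and the build was GRCh38. Settings, a shift of reads for the transposase and library depth are not given in the sources used here. Nor is the making of the ATAC libraries, since the labels' extraction text describes RNA. The deposited lists give, as the authors' peak caller wrote them, a score (not used), a fold or ratio over local background, −log10 p, −log10 q and the summit offset of each peak. All −log10 q values were above 1.30, the level of q = 0.05.

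Peaks were merged and ranked as described above, in Python 3.11.15 with numpy 2.4.6, pandas 2.3.3, scipy 1.17.1 and matplotlib 3.10.9. −log10 p values depend on depth, and percentiles remove a shift common to a whole list. Gene positions came from RefSeq tables of GRCh38.p14. A start was listed for 15101 of 19126 protein-coding genes, and both ends of the gene stood in for the others. No genome sequence was used, so sequence outside promoter windows was not examined. The promoter table held none on chromosome 8. The scripts were tested on simulated ranks.

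The members, the 22 gene lists and the comparisons were chosen with earlier results of these data known. The regions named were the 15 with the largest gap at starts and the 15 elsewhere, the 8 genes with most losses, up to 3 regions per gene list, 3 on each side of the threshold, and DEK. Regions of ESRRG, TGFB2 and ALDH1A1 outside the rule, the HECW1 regions, the other stretches, and the regions at PPARA, PPARD, ID3 and SMAD7 were named after their values were seen, as was the CpG comparison at matched control rank. The alternatives used another ranking statistic, population, threshold, overlap, gap, set of chromosomes or set of libraries. Some results of the gene lists and stretches are not reported here. The motif list was shortened by 2 longer motifs after their counts were seen, and the count by region was added later.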

Additional observations from a re-analysis of the deposited data

How the results depend on the processing

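The 1666 regions depended on the ranking and the gap. The start share of the regions that lost rank was below that of all shared regions under every alternative run. Ranking by fold gave 1620 regions, of which 974 were among the 1666, with 7.65% on chromosome 4, then the highest chromosome (main ranking: 9.60% on chromosome 7), and a median of 9.79 points in the unused libraries (main: 12.8). Percentiles among all peaks of a list gave 689 regions, 3.77% at starts, 7.98% on chromosome 4 and 9.84 points. A gap of 10 gave 5133 regions, 8.98% at starts, 14.2% on chromosome 1 and 8.31 points, and a gap of 30 gave 494, 2.83%, 4.25% on chromosome 13 and 18.3 points. Each library mattered for the count, which was 3400 without WT control 1, 3347 without WT control 2, 4523 without DEK KO 1 and 3574 without DEK KO 2. With 1 library left out, the count ranged from 3347 to 4523, the start share from 5.35% to 11.2% and the share on the highest chromosome, 1 or 7, from 8.65% to 16.2%; a rule over fewer libraries is easier to meet. Chosen after seeing the data, centring on 10 Mb bins gave 1574 regions with 3.68% on chromosome 13, then the highest, and leaving out chromosome 7 from 10 to 60 Mb gave 16.0% on chromosome 1. Summed peaks, stricter peaks, equal lists, a 100 bp overlap, single peaks and added chromosome X gave 1579 to 1709 regions. Also added after seeing the data, a replicate block that compared only libraries of the same number gave 2325 regions, which hold all 1666, with 6.49% at starts and 9.03% on chromosome 7. The labels do not say that the numbers pair the libraries, and differences between replicates 1 and 2 correlated at 0.01 between the genotypes over the shared regions. Chromosome 7's lead thus depended on the setting, and the cause was not tested.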

Other observations

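Hairpins of microRNAs lay within 1 kb of 5 regions that lost rank: MIR4773-1 with MIR4773-2, MIR550A1 with MIR550B1, MIR3663, MIR6514 and MIR4693. That is 0.300% of the regions that lost rank, against 0.441% of all shared regions and 0.262% of those that gained. Gaps at these regions were 22.1, 27.1, 22.7, 25.5 and 22.7 points in that order, close to the median of 25.9 over the 1666 regions. Some genes held regions of both kinds: 60 genes had an assigned region that lost rank and another that gained.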
